A study of Saccharomyces cerevisiae with 32 samples.

Results

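The 31 genes described here carry or answer the mating pheromone signal in budding yeast, Saccharomyces cerevisiae. They were taken by gene name and matched to the arrays through each gene's systematic name, and all 31 of the 6225 genes on the array were found, each with 1 probe printed as 2 spots. Of these, 14 are called signalling members below, parts of the chain whose transcripts need not respond to pheromone (GPA1, STE4, STE18, STE20, STE50, STE5, STE11, STE7, KSS1, MSG5, STE12, TEC1, DIG1 and DIG2). The other 17 are called mating-induced (SST2, FUS3, KAR4, AGA1, FIG1, FIG2, FUS1, FUS2, KAR5 and the 8 PRM genes PRM1, PRM2, PRM3, PRM4, PRM5, PRM6, PRM8 and PRM10). SST2 and FUS3 act in the signalling chain too but were placed in the mating-induced class. The split is thus not by role alone, and it was made with earlier results of these data known.

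The series asked how 4 transcription factors of S phase respond to phosphorylation by the cyclin-dependent kinase Cdk1. The strain called WT (YBL320) carries the tagged alleles HCM1-3HA and TOS4-3FLAG together with YOX1-3V5 and YHP1-13MYC. The phosphomutant strain called 4P (YBL289) carries hcm1-15A-3HA and tos4-9A-3FLAG together with yox1-9A-3V5 and yhp1-13A-13MYC, so that all 4 factors bear an epitope tag in both groups. Each genotype is 1 strain. Cells were held in G1 by alpha-factor for 2 h and released, and RNA was taken every 15 min from 0 to 105 min in 2 time courses per genotype. Each synchronised sample was hybridised against a common reference, asynchronous mid-log RNA of the strain MW836a, in which the same 4 genes carry no tag. The synchronised RNA was in Cy3 in time course 1 and in Cy5 in time course 2.

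Alpha-factor is the pheromone of alpha cells and acts on a cells. It binds a receptor that frees the G-protein beta-gamma pair from the alpha subunit Gpa1, and the pair brings a scaffold and a chain of kinases together. The last kinases of the chain, Fus3 and Kss1, relieve the transcription factor Ste12 of its inhibitors Dig1 and Dig2, and Ste12 then drives genes for adhesion, cell fusion, nuclear fusion and adaptation. The synchronisation by alpha-factor arrest therefore starts each time course from cells with this pathway switched on.

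Values are given per array as log2 of the synchronised RNA over the reference RNA, with time course 1 given before time course 2. A value of 1 is a doubling over asynchronous cells, and the ratio of a gene says nothing of its abundance against another gene. All 31 members were well above background in both channels on all 32 arrays. SST2 and AGA1 had no usable spot at 105 min in 4P time course 1, and PRM2 had none at 0 min in WT time course 2. Those means rest on 1 array. AGA1 was saturated on the 4P array of time course 2 at 0 min, so its ratio there is a lower bound. Between 94.8% and 99.6% of spots per array were well above background, and the log2 ratios of the members correlated at r = 0.793 to 0.986 between the arrays of a group. Over all genes r was lower, from 0.586 for 4P at 105 min to 0.918 for 4P at 45 min. The labels do not say how far the 2 time courses of a genotype were independent cultures, so the p-values measure the spread between these arrays. In bulk RNA, fewer responding cells and less RNA per cell cannot be told apart. At 0 min 7 a-cell markers had a mean ratio of 2.05 in WT and 2.09 in 4P, and 4 alpha-cell markers one of 0.68 and 0.30, but ratios to a common reference do not show whether a transcript is absent. At 30 min the a-cell markers were at -2.28 in WT and -2.32 in 4P, and the alpha-cell markers at 0.33 and 0.12. The marker ratios thus moved within the time courses and do not measure cell type.

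The mating-induced genes were high in the arrested cells, fell within 15 to 30 min of release, and stayed low for the rest of both time courses, as the heat map of group means shows. Over the 8 times, 24 of 31 members changed in WT and 25 in 4P (limma F test, adjusted p under 0.05), against 35.6% and 40.4% of all 6205 genes tested. All 17 mating-induced members passed in both genotypes. Of the 14 signalling members, 7 passed in WT (GPA1, STE4, STE5, STE7, MSG5, STE12 and DIG2) and 8 in 4P (GPA1, STE4, STE7, KSS1, MSG5, STE12, TEC1 and DIG2). From 0 to 15 min 23 members fell and 0 rose in each genotype, where 8.07% of all genes fell and 9.15% rose in WT, and 5.77% fell and 8.70% rose in 4P. The median change of the mating-induced members was -3.13 in WT and -2.77 in 4P, that of the signalling members was -0.38 and -0.51, and that of all genes was -0.01 and -0.02.

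**Figure D1:**
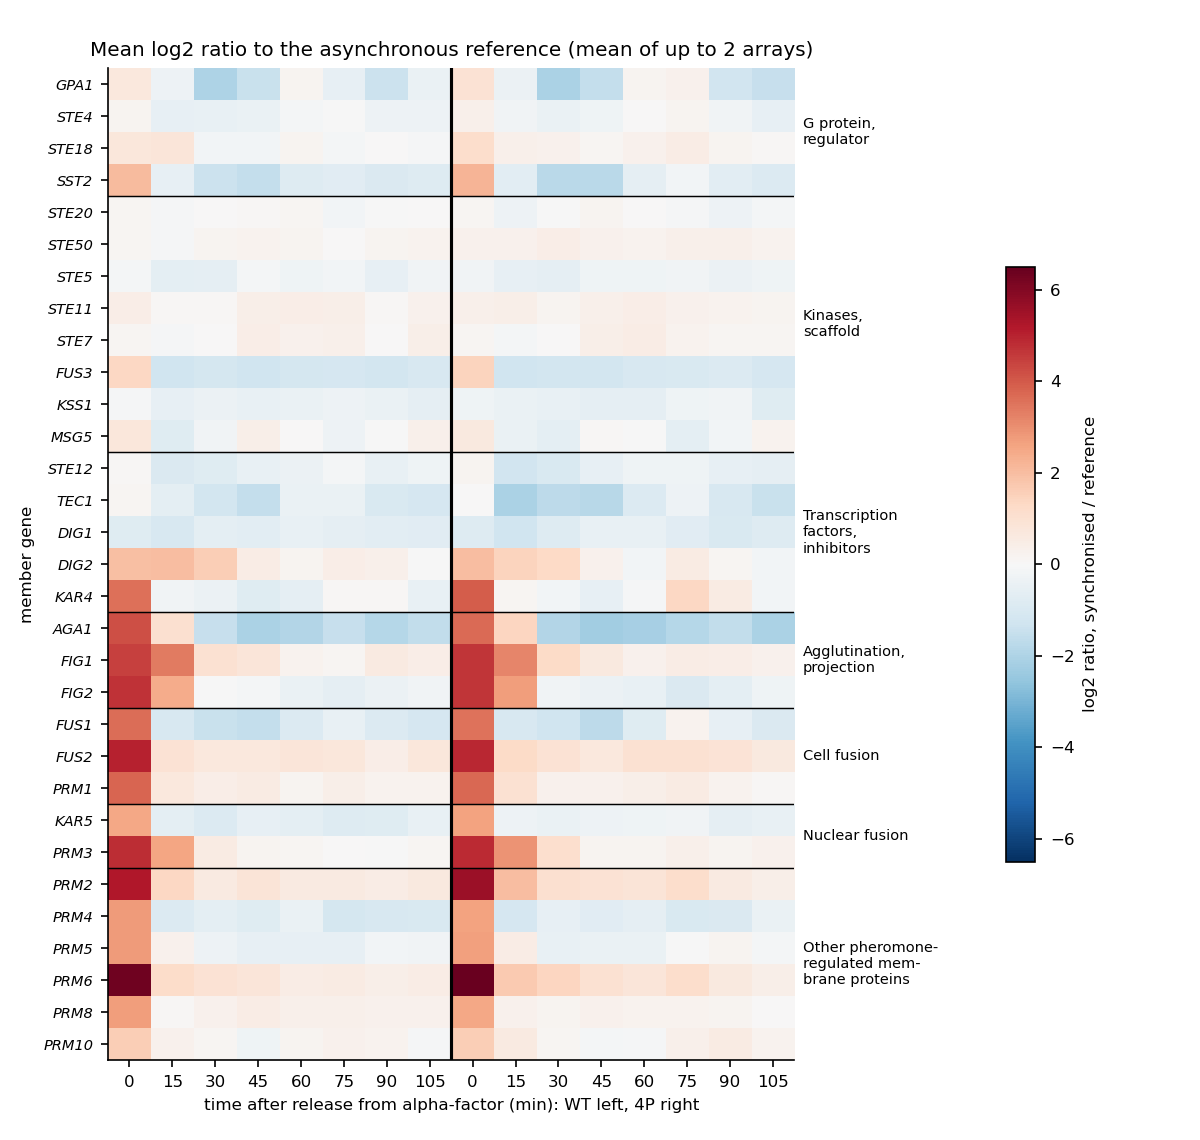
Mean log2 ratio to the asynchronous reference of each of the 31 members (rows, grouped by role) at the 8 times after release in WT (left) and 4P (right), each the mean of up to 2 arrays; red is above the reference and blue below. The mating-induced genes are red at 0 min and pale or blue from 30 min on, while most kinase genes are pale throughout.

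The call of all 17 mating-induced members held at each later time when set against 0 min. In WT 22 members were lower at 30 min (4.43% of all genes were), 22 at 45 min (5.16%), 18 at 60 min (3.14%), 20 at 75 min (5.22%), 21 at 90 min (5.53%) and 21 at 105 min (4.43%). In 4P the counts were 23 at 30 min (4.16%), 23 at 45 min (7.35%), 20 at 60 min (4.87%), 20 at 75 min (5.80%), 22 at 90 min (4.64%) and 24 at 105 min (7.43%). These comparisons share the 0 min arrays and are not independent of each other. In WT the count was smallest at 60 min, when DIG2 was the one signalling member lower than at 0 min; in 4P at that time these were DIG2, GPA1 and STE12.

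The fusion genes FUS1 and FUS2, the karyogamy regulator KAR4 and several PRM genes had lost most of their excess by the first sample after release. FUS1, whose membrane protein acts in cell fusion, stood at 3.65 and 3.63 in WT and 3.66 and 3.42 in 4P at 0 min. At 15 min it was at -1.35 and -0.76 in WT and -1.06 and -1.07 in 4P, below the reference on all 4 arrays, with no overlap with 0 min. The change was -4.69 (SE 0.19, adjusted p = 2.84e-13) in WT and -4.61 (SE 0.19, adjusted p = 4.16e-13) in 4P, a drop to between 3.14% and 4.77% of the arrest ratio in the 4 time courses. The arrays lay on 5 slides, and the 0 and 15 min samples shared a slide in WT time course 1 and 4P time course 2 alone, where FUS1 changed by -4.99 and -4.49. It moved little further by 30 min, when the arrays read -1.65 and -1.23 in WT and -1.35 and -1.24 in 4P, and stood at -1.07 and -0.68 in WT and -0.79 and -0.80 in 4P at 60 min.

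PRM6, which encodes a pheromone-regulated membrane protein, had the highest ratio to the reference at arrest. Its values were 5.85 and 6.80 in WT and 6.91 and 5.93 in 4P at 0 min and 1.27 and 1.06 in WT and 0.92 and 2.44 in 4P at 15 min. At 30 min they were 1.03 and 0.84 in WT and 1.22 and 1.56 in 4P, and at 60 min 0.44 and 0.52 in WT and 0.69 and 0.88 in 4P. The 0 min arrays lay above all later ones, and between 1.58% and 8.88% of the ratio was left at 15 min, the upper end coming from 4P time course 2. PRM2, of the same class of proteins, read 5.19 in WT (1 array) and 5.76 and 5.38 in 4P at 0 min. At 15 min it read 1.20 and 1.51 in WT and 1.54 and 2.43 in 4P, at 30 min 0.56 and 0.56 in WT and 0.93 and 1.16 in 4P, and at 60 min 0.65 and 0.52 in WT and 0.69 and 0.93 in 4P. Here too 4P time course 2 kept the highest ratio at 15 min.

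FUS2, a cell fusion gene, behaved in the same way, but levelled off above the reference. It stood at 4.84 and 5.17 in WT and 5.44 and 4.34 in 4P at 0 min and at 0.87 and 0.98 in WT and 1.27 and 1.22 in 4P at 15 min. Later arrays were nearly flat, with 0.56 and 0.83 in WT and 0.72 and 1.16 in 4P at 30 min and 0.86 and 0.67 in WT and 0.96 and 1.03 in 4P at 60 min. PRM1, which acts in the fusion of the plasma membranes, was at 3.60 and 3.98 in WT and 4.06 and 3.45 in 4P at 0 min, 0.74 and 0.58 in WT and 0.57 and 1.40 in 4P at 15 min, 0.47 and 0.43 in WT and 0.25 and 0.28 in 4P at 30 min and 0.21 and 0.19 in WT and 0.54 and 0.20 in 4P at 60 min. All 4 of its arrays at 0 min lay above every array at the 3 later times. KAR5, needed for the fusion of the nuclear envelopes, and PRM4 kept between 10.5% and 16% and between 6.02% and 10.2% of their arrest ratio at 15 min, and both ended below the reference.

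A second set of outputs fell in 2 steps. The set was formed after the values at 15 and 30 min were seen. The tests and the lack of overlap on these same arrays therefore add no support for the grouping. FIG1, a membrane protein of the mating projection involved in calcium uptake, stood at 4.33 and 4.55 in WT and 5.23 and 4.09 in 4P at 0 min and was still at 3.40 and 3.32 in WT and 2.95 and 3.44 in 4P at 15 min. It then dropped to 0.98 and 0.97 in WT and 1.12 and 1.39 in 4P at 30 min and 0.15 and 0.30 in WT and 0.08 and 0.47 in 4P at 60 min. The groups at 0, 15 and 30 min did not overlap. The first step was -1.08 (SE 0.24, adjusted p = 0.00293) in WT and -1.47 (SE 0.24, adjusted p = 1.32e-04) in 4P; the second, from 15 to 30 min, was -2.39 (SE 0.24, adjusted p = 4.25e-07) and -1.94 (SE 0.24, adjusted p = 6.70e-06). In WT the second step was thus the larger, and on the scanner's own log ratios and in the authors' series table the first was -0.70 and did not pass.

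FIG2, a cell wall adhesin of mating cells, fell from 4.29 and 5.06 in WT and 5.26 and 4.01 in 4P at 0 min to 1.92 and 2.87 in WT and 2.45 and 2.95 in 4P at 15 min. It was at -0.24 and 0.22 in WT and -0.19 and -0.25 in 4P at 30 min and at -0.46 and -0.35 in WT and -0.48 and -0.45 in 4P at 60 min. AGA1, the anchor subunit of a-agglutinin, went from 3.98 and 4.42 in WT and 4.10 and 3.24 in 4P to 0.98 and 1.15 in WT and 1.01 and 1.77 in 4P at 15 min and to -1.70 and -1.33 in WT and -2.03 and -1.75 in 4P at 30 min, and was at -2.08 and -1.77 in WT and -2.11 and -2.18 in 4P at 60 min. AGA1 thus crossed from above the reference to far below it between 15 and 30 min on all 4 arrays. PRM3, a nuclear envelope protein that acts in nuclear fusion, stood at 4.55 and 5.08 in WT and 4.94 and 4.73 in 4P, then at 2.51 and 2.61 in WT and 2.49 and 3.34 in 4P, then at 0.54 and 0.51 in WT and 1.17 and 1.05 in 4P, and at 60 min at 0.23 and 0.02 in WT and 0.03 and 0.37 in 4P. For FIG2, AGA1 and PRM3 as for FIG1, the 4 arrays at 15 min lay between those at 0 min and those at 30 min with no overlap. This order is not particular to the set, since PRM1, PRM2 and GPA1, among others, showed it too. PRM2 was also called lower from 15 to 30 min, by -0.79 (adjusted p = 0.013) in WT and -0.95 (adjusted p = 0.0047) in 4P.

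**Figure D2:**
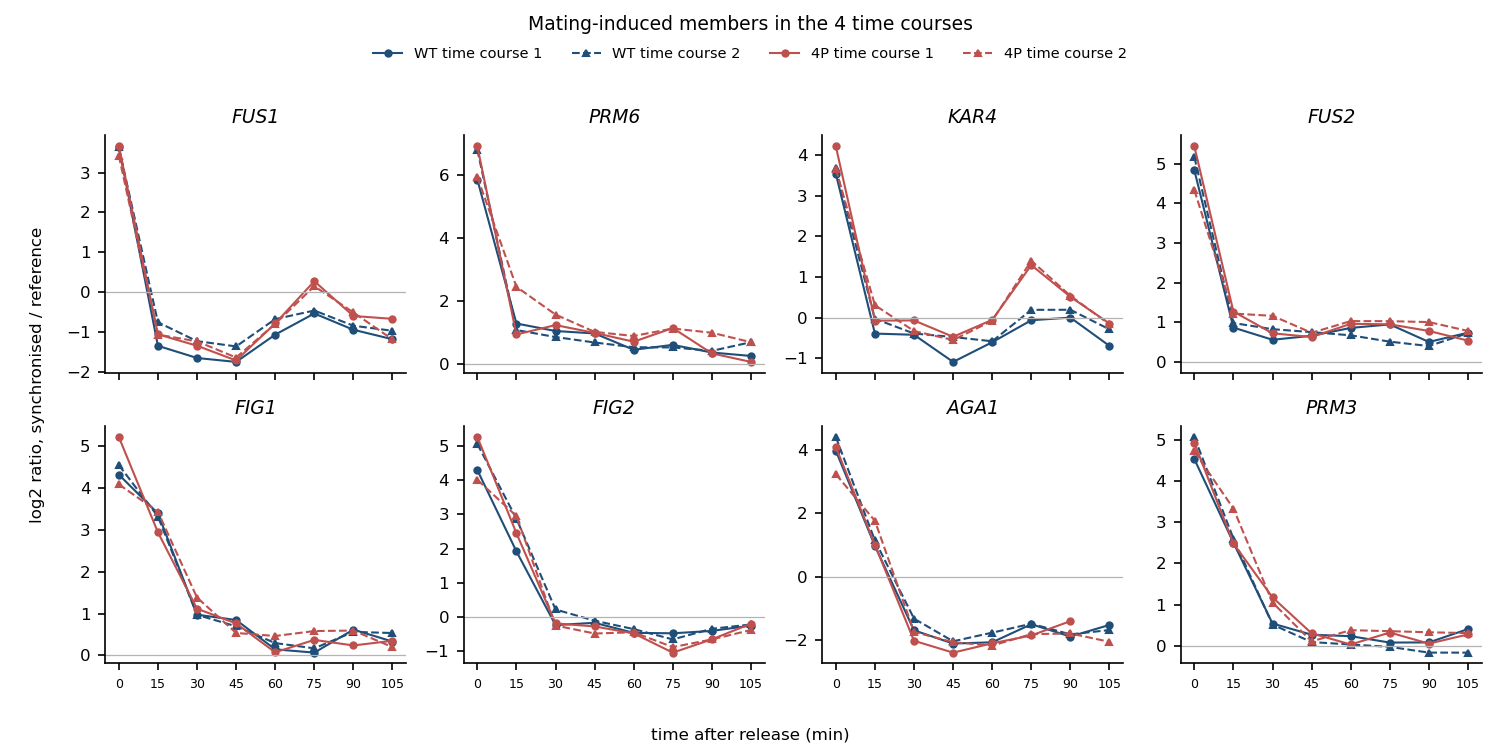
Log2 ratio to the reference (vertical axis) against time after release in minutes (horizontal axis) for 8 mating-induced members, 1 line per time course, WT in blue and 4P in red. For FUS1, PRM6, KAR4 and FUS2 in the upper panels most of the fall lies before 15 min, and FIG1, FIG2, AGA1 and PRM3 in the lower panels fall steeply on from 15 to 30 min.

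The contrast of 30 against 15 min, added after the values were seen, called 8 members lower in WT (AGA1, FIG1, FIG2, PRM3, PRM2, SST2, GPA1 and DIG2) where 9.73% of all genes were lower. In 4P it called 9 lower (AGA1, FIG1, FIG2, PRM3, PRM1, PRM2, PRM5, SST2 and GPA1) where 7.69% of all genes were. With single arrays left out the counts ran from 5 to 11 in WT and from 5 to 9 in 4P. AGA1, FIG1, FIG2, PRM3 and GPA1 kept their calls in both genotypes throughout. In WT DIG2 lost its call in 3 of 12 alternative settings and 16 of the 32 fits, and SST2 in 3 and 2. In 4P PRM1 lost its call in 2 settings and 3 fits, and PRM5 in 2 and 2. PRM2 in both genotypes and SST2 in 4P lost theirs in fits without 1 array alone. Of the 31 members AGA1 changed most in this interval, by -2.57 in WT (SE 0.25) and by -3.27 in 4P (SE 0.25).

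The share of the arrest ratio that was left at 15 min differed widely among the outputs. Over the 4 time courses it lay between 3.14% and 4.77% for FUS1, between 5.14% and 9.86% for KAR4, between 10.3% and 36% for AGA1, between 18% and 38.1% for PRM3, between 14.3% and 48% for FIG2 and between 20.6% and 63.4% for FIG1. The upper end for AGA1 rests on the saturated 0 min array and is an upper bound. In the other 3 time courses AGA1 kept 12.4% or less. At 30 min the order was another one, with between 1.43% and 3.15% left for AGA1, between 2.54% and 3.96% for FUS1 and between 5.8% and 15.3% for FIG1. The upper end for AGA1 is a bound here too. PRM10, with the smallest arrest ratio of the PRM genes, kept between 35.8% and 65.8% at 15 min and between 29.2% and 44.3% at 30 min. The median over the mating-induced members was 12.9% ± 0.261 (SD, n = 2 time courses) at 15 min in WT and 14.2% ± 5.18 (SD, n = 2) in 4P, then 8.25% ± 0.0559 and 8.64% ± 3.10 at 30 min, and 7.56% ± 0.168 and 6.39% ± 2.60 at 45 min. The 4P time courses differed from each other more than the genotypes did. These shares depend on the background correction, which pulls low signals toward the reference, and they rest on 1 sampling interval, so they are not transcript decay rates.

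**Figure D3:**
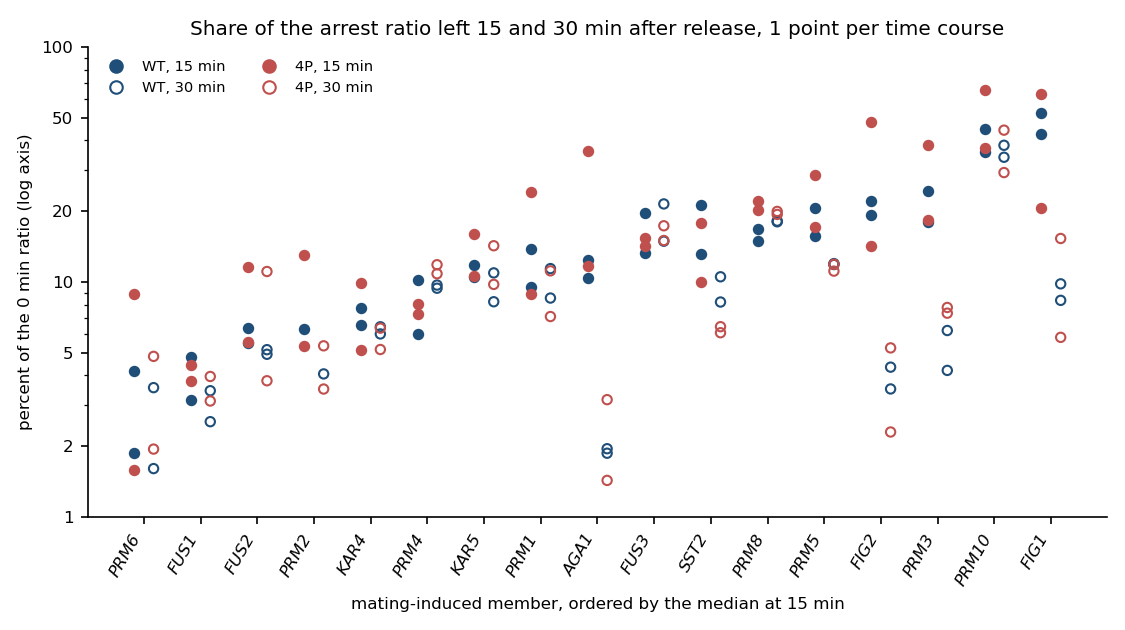
Percent of the 0 min ratio left (vertical log axis) at 15 min (filled) and 30 min (open) for the 17 mating-induced members, 1 point per time course, WT in blue and 4P in red, members ordered by their median at 15 min. FUS1 keeps between 3.14% and 4.77% at 15 min, while FIG1 keeps between 20.6% and 63.4% at 15 min and between 5.8% and 15.3% at 30 min.

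Among the G-protein genes, GPA1 and SST2 had wide courses and the beta and gamma subunits narrower ones. GPA1, the alpha subunit that holds the pathway off, read 0.62 and 0.78 in WT and 1.23 and 0.70 in 4P at 0 min and -0.65 and -0.04 in WT and -0.49 and -0.28 in 4P at 15 min. Its lowest arrays in all 4 time courses were at 30 min, at -2.04 and -1.94 in WT and -2.34 and -1.82 in 4P, and by 60 min it was back at 0.22 and 0.13 in WT and -0.03 and 0.35 in 4P. The fall from 0 to 30 min was -2.69 (SE 0.24, adjusted p = 3.29e-08) in WT and -3.04 (SE 0.24, adjusted p = 4.55e-09) in 4P. SST2, which speeds GTP hydrolysis by Gpa1 and so desensitises the cell, stood at 1.97 and 2.14 in WT and 2.18 and 2.27 in 4P at 0 min, -0.97 and -0.10 in WT and -1.14 and -0.21 in 4P at 15 min and -1.64 and -1.11 in WT and -1.77 and -1.77 in 4P at 30 min. STE4, the beta subunit, moved within a narrow band, from 0.15 and 0.21 in WT and 0.20 and 0.46 in 4P at 0 min to -0.58 and -0.47 in WT and -0.25 and -0.25 in 4P at 15 min, yet its groups did not overlap and the change passed in both genotypes (-0.71, adjusted p = 0.00123; -0.58, adjusted p = 0.00676). The 4P call was lost in 3 of 12 alternative settings and without the 4P array of time course 2 at 0 min (-0.45, highest adjusted p = 0.0904).

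STE18, the gamma subunit, did not pass over time in WT (adjusted p = 0.0730) or 4P (adjusted p = 0.147). It read 0.50 and 1.01 in WT and 0.98 and 1.35 in 4P at 0 min, 0.28 and 1.26 in WT and -0.31 and 0.94 in 4P at 15 min, -0.30 and -0.03 in WT and 0.18 and 0.42 in 4P at 30 min and 0.28 and 0.05 in WT and 0.11 and 0.41 in 4P at 60 min. At 15 min the arrays of time course 1 lay below those of time course 2 in both genotypes, and the time courses hold opposite dye orientations. All 4 of its arrays at 0 min lay above all 4 at 30 min. Against 0 min STE18 was called lower in 4P at 45 min, by -1.03 (adjusted p = 0.0447), and at 105 min, by -1.10 (adjusted p = 0.0298). The first call was lost in 4 of 12 alternative settings and 18 of the 32 fits without 1 array (highest adjusted p = 0.241). The second was lost in 3 settings and without the 4P array of time course 1 at 105 min (-0.84) or of time course 2 at 0 min (-0.91).

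**Figure D4:**
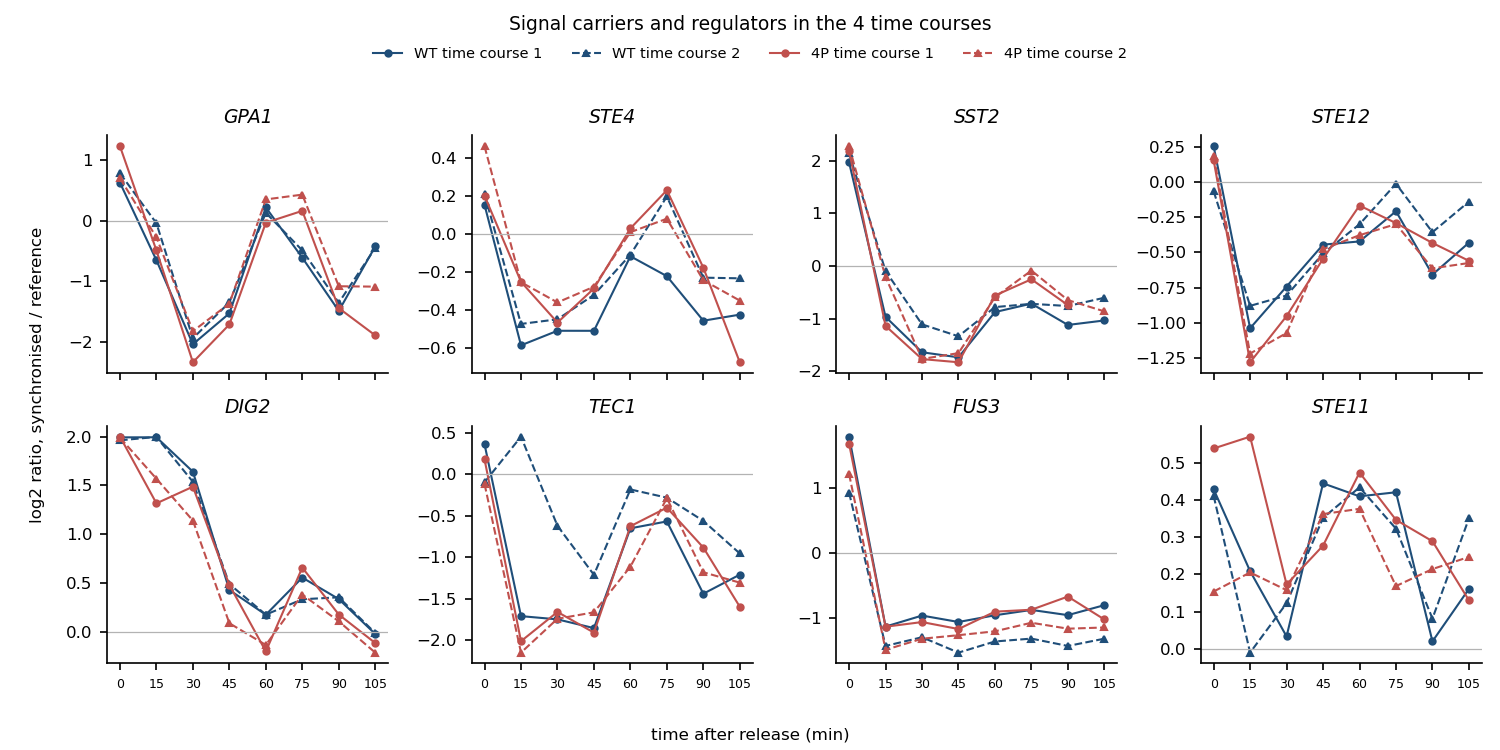
Log2 ratio to the reference (vertical axis) against time after release in minutes (horizontal axis) for 8 genes of the G protein, kinase and transcription factor groups, 1 line per time course, WT in blue and 4P in red; each panel has its own vertical scale. GPA1 is lowest at 30 min in all 4 time courses and is back near 0 at 60 min, DIG2 is still high at 30 min, and STE11 stays between -0.01 and 0.57.

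Of the kinase group, the mitogen-activated kinase FUS3 was the one member called lower than at 0 min at each of the 7 later times in both genotypes. It stood at 1.79 and 0.93 in WT and 1.68 and 1.22 in 4P at 0 min and at -1.13 and -1.42 in WT and -1.13 and -1.48 in 4P at 15 min, with no overlap, and then stayed within a narrow band, at -0.95 and -1.36 in WT and -0.90 and -1.20 in 4P at 60 min. The fall was -2.63 (SE 0.27, adjusted p = 2.18e-07) in WT and -2.75 (SE 0.27, adjusted p = 1.08e-07) in 4P. MSG5, a phosphatase that acts on Fus3, fell by a smaller step. It read 1.03 and 0.40 in WT and 0.90 and 0.39 in 4P at 0 min, -0.77 and -0.81 in WT and -0.06 and -0.83 in 4P at 15 min and 0.47 and 0.25 in WT and 0.14 and 0.01 in 4P at 45 min, when the arrays of each genotype lay above those at 15 min. Its 15 min change was -1.50 (SE 0.26, adjusted p = 1.91e-04) in WT and -1.09 (SE 0.26, adjusted p = 0.00455) in 4P. The 4P call was lost without the array of time course 1 at 0 min (-0.84) or of time course 2 at 15 min (-0.70).

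KSS1, the kinase that shares substrates with Fus3, changed little. It was at -0.10 and -0.09 in WT and -0.04 and -0.54 in 4P at 0 min, -0.44 and -0.64 in WT and -0.45 and -0.43 in 4P at 15 min, -0.34 and -0.41 in WT and -0.41 and -0.53 in 4P at 30 min and -0.36 and -0.54 in WT and -0.54 and -0.60 in 4P at 60 min. It passed over time in 4P (adjusted p = 0.0250) and not in WT (adjusted p = 0.119), while its fall from 0 to 15 min passed in WT (-0.45, adjusted p = 0.0255) and not in 4P (-0.15, adjusted p = 0.57). The difference between these 2 falls was 0.30 (adjusted p = 0.834) and did not pass. The WT call was lost in 2 of 12 alternative settings and without any 1 of 3 of its 4 arrays (highest adjusted p = 0.247).

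The upstream kinases and their helpers stayed close to the reference at all times. STE5, the scaffold, read -0.02 and -0.24 in WT and -0.24 and -0.19 in 4P at 0 min, -0.56 and -0.75 in WT and -0.44 and -0.58 in 4P at 15 min, -0.53 and -0.61 in WT and -0.57 and -0.56 in 4P at 30 min and -0.20 and -0.38 in WT and -0.12 and -0.47 in 4P at 60 min. It changed over time in WT (adjusted p = 0.00950) and did not pass in 4P (adjusted p = 0.234), but all 4 arrays at 15 min and at 30 min lay below all 4 at 0 min. STE7, the kinase that phosphorylates Fus3 and Kss1, passed narrowly in both genotypes (adjusted p = 0.0380 and 0.0476), with a range over the group means of 0.52 in WT and 0.58 in 4P.

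STE11, the kinase above Ste7, was at 0.43 and 0.41 in WT and 0.54 and 0.15 in 4P at 0 min and 0.21 and -0.01 in WT and 0.57 and 0.21 in 4P at 15 min. It was at 0.03 and 0.12 in WT and 0.17 and 0.16 in 4P at 30 min and 0.41 and 0.43 in WT and 0.47 and 0.38 in 4P at 60 min, and did not pass in WT (adjusted p = 0.0782) or 4P (adjusted p = 0.621). STE20, the kinase that activates Ste11, was at 0.04 and 0.20 in WT and 0.04 and 0.27 in 4P, then -0.07 and -0.09 in WT and -0.61 and -0.02 in 4P, then 0.04 and -0.03 in WT and -0.10 and 0.03 in 4P and at 60 min 0.09 and 0.13 in WT and -0.10 and 0.18 in 4P (adjusted p = 0.878 in WT and 0.173 in 4P). STE50, the adaptor of Ste11, was at 0.05 and 0.21 in WT and 0.28 and 0.31 in 4P, then 0.16 and -0.31 in WT and 0.42 and 0.18 in 4P, then 0.24 and 0.12 in WT and 0.45 and 0.39 in 4P and at 60 min 0.24 and 0.16 in WT and 0.39 and 0.07 in 4P (adjusted p = 0.627 and 0.975). The STE50 groups overlapped at these 4 times, and the STE20 arrays lay lower at 15 min than at 0 min but overlapped with them at 60 min. Their group means ranged over 0.27 for STE20 and 0.31 for STE50 in WT, where the median range over all genes was 0.61. A missed threshold with 2 arrays a group does not show that these transcripts were constant.

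The transcription factor STE12 fell to below the reference and recovered in part. It read 0.25 and -0.07 in WT and 0.15 and 0.18 in 4P at 0 min and -1.04 and -0.88 in WT and -1.28 and -1.22 in 4P at 15 min. It was at -0.74 and -0.81 in WT and -0.95 and -1.07 in 4P at 30 min and -0.42 and -0.30 in WT and -0.17 and -0.38 in 4P at 60 min, between the earlier groups. The first fall was -1.05 (SE 0.14, adjusted p = 7.26e-06) in WT and -1.42 (SE 0.14, adjusted p = 9.11e-08) in 4P. KAR4, which works with Ste12 at nuclear fusion genes, fell far more. It stood at 3.54 and 3.67 in WT and 4.21 and 3.65 in 4P at 0 min and -0.39 and -0.03 in WT and -0.07 and 0.31 in 4P at 15 min, then at -0.42 and -0.39 in WT and -0.07 and -0.33 in 4P at 30 min and -0.60 and -0.58 in WT and -0.05 and -0.07 in 4P at 60 min. The drop was -3.81 (SE 0.20, adjusted p = 1.13e-11) in WT and -3.81 (SE 0.20, adjusted p = 1.69e-11) in 4P.

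DIG2, an inhibitor of Ste12, left the arrest late. It stood at 1.99 and 1.96 in WT and 2.00 and 1.99 in 4P at 0 min, at 1.99 and 2.00 in WT and 1.32 and 1.57 in 4P at 15 min and still at 1.64 and 1.54 in WT and 1.49 and 1.14 in 4P at 30 min. It then fell to 0.43 and 0.49 in WT and 0.48 and 0.09 in 4P at 45 min and 0.18 and 0.18 in WT and -0.20 and -0.13 in 4P at 60 min. In WT the 15 min values were where the 0 min values had been, with a change of 0.02 (SE 0.14) that turned to -0.02 under median centring, while the change from 30 to 60 min was -1.41 (SE 0.14, adjusted p = 1.87e-07) in WT and -1.48 (SE 0.14, adjusted p = 1.04e-07) in 4P. In 4P the 15 min arrays were already lower than at 0 min, by -0.55 (adjusted p = 0.00887). This call was lost in 5 of 12 alternative settings (highest adjusted p = 0.177) and without the 4P array of time course 1 at 0 min (-0.55) or at 15 min (-0.43). The difference between the genotypes in that change was -0.57 (SE 0.20, adjusted p = 0.834) and did not pass.

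DIG1, the other inhibitor of Ste12, did not share this course. It was at -0.45 and -1.11 in WT and -0.67 and -1.05 in 4P at 0 min, -1.30 and -0.77 in WT and -1.24 and -1.38 in 4P at 15 min, -0.51 and -0.74 in WT and -0.81 and -0.87 in 4P at 30 min and -0.56 and -0.41 in WT and -0.55 and -0.41 in 4P at 60 min, with groups that overlapped in WT (adjusted p over time = 0.628 in WT and 0.104 in 4P). TEC1, the partner of Ste12 at filamentation genes, was at 0.36 and -0.10 in WT and 0.18 and -0.12 in 4P at 0 min and -1.71 and 0.45 in WT and -2.01 and -2.15 in 4P at 15 min. It was at -1.75 and -0.62 in WT and -1.66 and -1.74 in 4P at 30 min and -0.65 and -0.18 in WT and -0.63 and -1.11 in 4P at 60 min. WT time course 2 stood apart at 15 min, above the reference where the other 3 arrays were far below it. TEC1 passed over time in 4P (adjusted p = 0.00539) and not in WT (adjusted p = 0.0758), and its 15 min change in WT of -0.76 lay between -1.84 and 0.32 when single arrays were left out.

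Toward the end of the first cycle GPA1 rose again in both genotypes with no pheromone added. In WT the counts of members that rose and fell were near the shares over all genes. From 30 to 60 min 1 member rose in WT, GPA1, by 2.16 (SE 0.24, adjusted p = 1.05e-06), where 5.17% of all genes rose, and 2 fell, DIG2 and FIG1, where 6.43% fell. In 4P 3 members rose, GPA1 by 2.24 (SE 0.24, adjusted p = 7.16e-07), SST2 by 1.19 (SE 0.26, adjusted p = 0.00369) and STE12 by 0.74 (SE 0.14, adjusted p = 6.54e-04), where 5.21% of all genes rose. DIG2, FIG1 and PRM3 fell in 4P, where 7.14% of all genes fell. The call of FIG1 in WT (-0.75, adjusted p = 0.0462) was lost in 3 of 12 alternative settings and in 22 of the 32 fits without 1 array (highest adjusted p = 0.256). Those of FIG1 and PRM3 in 4P were lost in 1 setting and 2 fits each. Each time course is in 1 dye orientation. With the time course as a block the counts were 6 in WT and 10 in 4P. The shares over all genes above belong to the fit without this block. No such share is given for the block, so its counts were not set against one. This block added FUS1, STE12 and STE4 in WT and FUS1, MSG5, STE4 and STE7 in 4P, all higher. A difference between the genotypes in the change from 30 to 60 min passed for 0 of the 31 members (0 called of all 6205 genes; 0 members and 91 genes at an unadjusted p under 0.05).

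FUS1 and KAR4 also showed a later high point well below the arrest level. FUS1 was highest after 30 min at 75 min in all 4 time courses, at -0.54 and -0.46 in WT and 0.27 and 0.15 in 4P. KAR4 was at -0.06 and 0.19 in WT and 1.29 and 1.40 in 4P at 75 min and at 0.00 and 0.20 in WT and 0.51 and 0.54 in 4P at 90 min. GPA1 was highest after 30 min at 60 min in both WT time courses and at 75 min in both 4P time courses, with -0.61 and -0.49 in WT and 0.16 and 0.43 in 4P at 75 min. Stage markers moved with these times: the mean of 5 M/G1 markers rose from -2.09 at 30 min to 0.06 at 60 min and 0.20 at 75 min in WT, and from -2.32 to -0.77 and 0.44 in 4P. Their part in the result was not tested.

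Up to 60 min no member passed the test for a difference between WT and 4P. At 0 min 0 of 31 members differed (0.113% of all genes did; 1 member and 473 genes at an unadjusted p under 0.05), and the differences, 4P minus WT, lay between -0.53 and 0.41 with 95% intervals up to 1.86 wide. At 15 min 0 members differed (0.113% of all genes; 6 members and 887 genes unadjusted). At 30 min 0 differed (0.0967%; 2 members and 777 genes), at 45 min 0 (0.161%; 0 and 316), and at 60 min 0 (0.451%; 2 and 321). The fall from 0 to 15 min differed for 0 members and 0 of all genes (4 members and 317 genes unadjusted).

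The largest 15 min difference was in TEC1, at -1.45 (SE 0.45, adjusted p = 0.154), and it depended on single arrays. Without the one high WT array it was -0.37, and without the other WT array -2.53. The high array had a median signal over background of 6.67, the lowest of the 32 arrays. DIG2 was at -0.55 (SE 0.14, adjusted p = 0.0968) at 15 min, with all 4P arrays below all WT arrays. With the time course as a block TEC1 and DIG2 were called lower in 4P (adjusted p = 0.0298 for each). That block leaves out the spread between time courses.

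At 75 min 3 members were higher in 4P, where 2.68% of all genes were higher. KAR4 read -0.06 and 0.19 in WT and 1.29 and 1.40 in 4P, a difference of 1.28 (SE 0.20, adjusted p = 0.00232), or 2.43-fold. FUS1 read -0.54 and -0.46 in WT and 0.27 and 0.15 in 4P, a difference of 0.71 (SE 0.19, adjusted p = 0.043). GPA1 read -0.61 and -0.49 in WT and 0.16 and 0.43 in 4P, a difference of 0.85 (SE 0.24, adjusted p = 0.0474). The genotypes did not overlap for any of the 3 genes, but the genes were picked by a test on these same arrays, so this adds no support. No member was lower in 4P at this time, where 2.30% of all genes were lower. KAR4 was also the 1 member of 31 that passed in the test over all 8 times (adjusted p = 0.00571), where 5.04% of all genes did. That count is not above the share over all genes, and the call was lost with slide as a fixed block.

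The 3 calls at 75 min were not equally firm. KAR4 passed in all 12 alternative settings and in all but 1 of the 32 fits that left out an array (highest adjusted p = 0.0860). FUS1 lost its call with slide as a fixed block and in 10 of the 32 fits, and GPA1 in 3 of the 12 settings and in 20 of the 32 fits. No slide held both genotypes at 75 min, so there is no within-slide value for this difference, and with slide as a fixed block KAR4 was the one member called.

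The other mating-induced members did not pass at 75 min. Of all 17, KAR4 and FUS1 included, 12 were higher in 4P in both dye orientations and 3 were lower in both. Of all genes 37.5% and 36.4% were. KAR5 was at 0.60, PRM6 at 0.57, SST2, PRM2 and PRM5 at 0.55 and FIG1 at 0.36, whereas AGA1 was at -0.34 and FIG2 at -0.39. Among cell cycle stage markers, the mean of 3 G1/S markers at this time was 1.53 in WT (arrays 1.53 and 1.53) and 0.68 in 4P (0.64 and 0.73). That of 5 M/G1 markers was 0.20 and 0.44. The mean of 7 a-cell markers, which are not stage markers, was -0.86 and -0.41. Called higher in 4P were 0 of the G1/S, 1 of the M/G1 and 2 of the a-cell markers, where 2.68% of all genes were. None was called lower, where 2.30% of all genes were. The part of these markers in the difference was not tested.

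**Figure D5:**
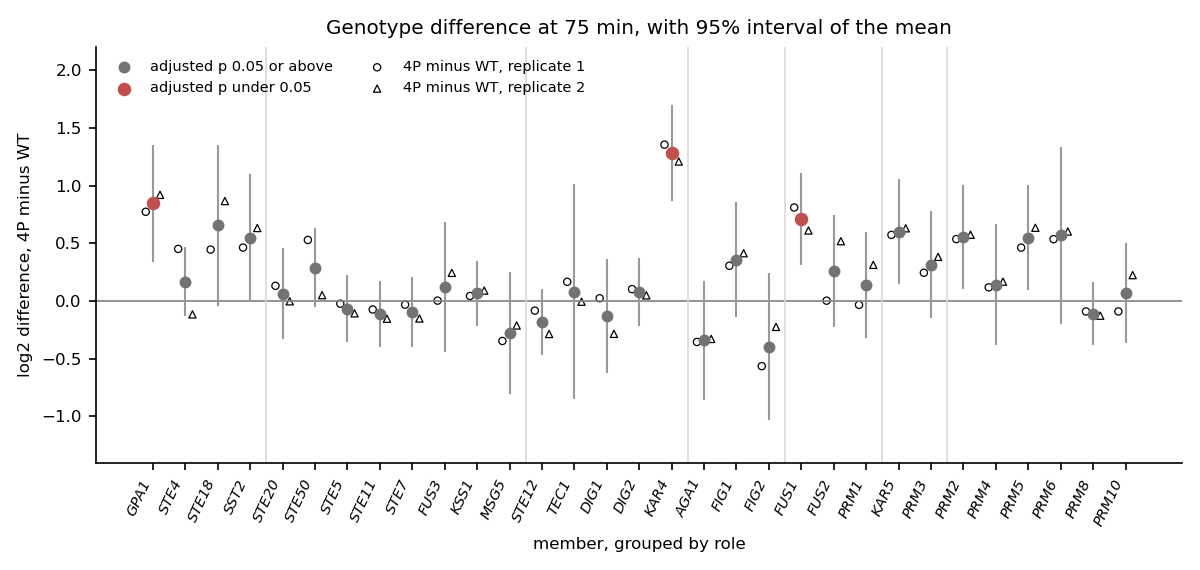
Log2 difference 4P minus WT at 75 min (vertical axis) for the 31 members grouped by role (horizontal axis), with the 95% interval of the mean; open symbols give the difference within each replicate number, and red points passed the test. KAR4, FUS1 and GPA1 lie above 0 with both open symbols, and AGA1 and FIG2 below 0 without passing.

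After 75 min no member passed. At 90 min 0 members differed (0.0322% of all genes; 1 member and 401 genes unadjusted), although KAR4 was still higher in both 4P arrays. At 105 min 0 differed (0.371% of all genes; 2 members and 529 genes unadjusted). GPA1 then read -0.43 and -0.45 in WT and -1.89 and -1.09 in 4P, a difference of -1.05 (SE 0.24, adjusted p = 0.0632), with the sign opposite to that at 75 min. Without the 4P array of time course 1, on which 1761 spots were outliers, the GPA1 difference was -0.65. Without the 4P array of time course 2 it was -1.45. GPA1 was called lower in 4P with a block for replicate number, for time course or for slide as a random block. With slide as a fixed block it was not called. The dependence of the difference on time passed for 0 members (0.0806% of all genes did; 2 members and 253 genes unadjusted).

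Other genes of the pathway were read from 2 lists. Of 13 genes for the a-cell receptor, pheromone and processing, 7 fell from 0 to 15 min in WT, where 8.07% of all genes fell, and 9 fell in 4P, where 5.77% did, and 0 rose. STE2, the receptor for alpha-factor, was at a group mean of 1.07 at 0 min, -2.05 at 15 min and -3.44 at 30 min in WT, and at 1.13, -1.23 and -3.57 in 4P. BAR1, the protease that destroys alpha-factor, went from 2.11 to -2.17 and -3.85 in WT, and from 2.15 to -0.96 and -3.57 in 4P. MFA1 and MFA2 encode the pheromone of a cells. MFA1 was at 2.59 at 0 min, 1.85 at 15 min and -1.62 at 30 min in WT, a late fall, and MFA2 at 0.84, -1.0 and -2.84. ASG7, an a-specific gene, went from 5.01 to 1.45 and -0.86. At 75 min 2 genes of the list were higher in 4P, where 2.68% of all genes were, BAR1 (0.89, adjusted p = 0.0390) and STE6, the exporter of a-factor, which is named for this call (0.78, adjusted p = 0.0306).

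Of 21 genes for polarity, arrest and other responses, 9 fell and 2 rose from 0 to 15 min in WT, where 8.07% of all genes fell and 9.15% rose. In 4P 6 fell and 0 rose, where 5.77% fell and 8.70% rose. The 2 of 21 that rose in WT are near the share over all genes. FAR1, the inhibitor that holds the arrest, went from a group mean of 1.38 at 0 min to -2.46 at 15 min and back to 0.30 at 60 min in WT, and from 1.28 to -2.37 and -0.33 in 4P. It was the gene of this list that differed at 75 min (0.87 higher in 4P, adjusted p = 0.037).

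The genes whose course was most like that of the mating-induced members were sought among 1991 genes that are not members and range over at least 1 across the 16 group means. The closest was ECM18 (r = 0.991 with the mean of the mating-induced members over 16 group means), followed by AFR1 (r = 0.985), which acts in shaping the mating projection, and by the open reading frames YML047W-A (r = 0.981) and YDR124W (r = 0.980). RIF2, ASG7, YGL052W, YCL076W, HYM1 and HOS2 followed with r from 0.961 to 0.971. ECM18 fell from 2.80 to 0.58 within 15 min in WT and from 2.91 to 0.52 in 4P. Among the members themselves r against the same mean ran from 0.897 for FIG1 to 0.992 for PRM2 in the mating-induced class, and from -0.30 for DIG1 to 0.81 for STE18 in the signalling class; the mating-induced members are part of that mean.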

How the data were processed

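The 32 arrays are 2-colour Agilent arrays of total RNA, amplified by in vitro transcription, with 2 arrays in each of 16 groups. Per the file headers, the authors deposited scanner output of Agilent Feature Extraction (version 10.7.1.1 in the submitters' processing notes) with median spot and background intensities per channel and a log10 ratio of the red to the green channel. The authors' deposited series table holds log2 ratios, whose scale and direction were found by comparison with the scanner values; its centring stays unknown. From the intensities, background was corrected by normexp (offset 50) and ratios normalised by loess within each array, without control and outlier spots, in limma 3.58.1 and R 4.3.3. Spots and then probes of a gene were averaged, and ratios were turned to sample over reference. Genes were kept if their sample channel was well above background on every array of 1 group or more, 6205 of 6225. The group-means model used all 32 arrays, with moderated F tests and contrasts and Benjamini-Hochberg adjustment over the genes kept at 0.05, and was tested on simulated data. Shares left are 100 times 2 to the power of the change within a time course. The number of arrays limits the precision.

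The members, gene lists and tests were chosen with earlier results of these data known. All 31 members are named. Array values at 0, 15, 30 and 60 min are given for the 8 mating-induced members highest at 0 min, STE12, KSS1, GPA1, members called between genotypes and members whose course test was not passed in a genotype; other genes come from the 2 lists (the 5 with the largest range, with STE2, MFA1, MFA2, FAR1, BAR1 and ASG7) and from the most similar courses. The deviations of same-numbered arrays of WT and 4P correlated at r over 0.1 at 7 of 8 times and at 0.05 at 45 min. Pairing of the genotypes required all 8, so the number, which is also the dye orientation, was not taken to pair them; its block is an alternative. Within a genotype the number is the time course, per the series' design. The deviations of arrays within a time course correlated at a median r of 0.43 in WT and 0.31 in 4P. They were over 0.1 for 27 of 28 pairs of times in WT and 25 of 28 in 4P. The main model holds no term for the time course, so its changes over time were tested unpaired. Alternatives were other background corrections and normalisations, filters, blocks for replicate, time course or slide, fewer samples and single arrays left out. Promoter and protein sequences were not used here, and no genome coordinates are given.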

Additional observations from a re-analysis of the deposited data

How the results depend on the processing

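The counts of members changed over time and from 0 min to each later time moved by less than 1.5 times under the 12 alternatives and the 32 fits without 1 array. The changes from 30 to 60 min numbered 3 in WT and 5 with a replicate block, 6 with the replicate block nested in genotype, 6 with slide as a random block and 6 with slide fixed; in 4P they numbered 6 and 10 with the nested replicate block, 10 with slide as a random block and 10 with slide fixed. The block by replicate number called 1 member between genotypes at 15 min, the nested block 2, and the fit without the 2 arrays with most outlier spots 1; at 75 min the nested block called 5 and slide fixed 1; at 105 min the replicate, nested and random slide blocks each called 1. Over all times the replicate block called 3, the nested block 5, random slide 2, fixed slide 0 and the fit without 2 arrays 2, and for the dependence on time the replicate and nested blocks each called 1. Without single arrays the counts ran from 0 to 1 at 15 min, 0 to 3 at 75 min, 0 to 2 at 105 min and 1 to 3 over all times, and from 15 to 30 min from 5 to 11 in WT and 5 to 9 in 4P. The median share left in WT at 15 min was 11.7% on scanner ratios, 11% in the series table, 13.2% with median centring and 12.4% with offset 10; at 30 min it was 6.95%, 6.63%, 7.91% and 7.99%, and at 45 min 7.18% in the series table. Signs turned for uncalled 15 min changes of STE18 in WT (-0.0337 with median centring, -0.0294 with slide as a random block), DIG2 in WT (-0.0197 with median centring), STE50 in 4P (-0.12) and STE11 in 4P (-0.14), both without the 2 arrays. Leaving out single arrays turned STE18 (-0.48 to 0.50), STE50 (-0.44 to 0.0326), TEC1 (-1.84 to 0.32) and DIG1 (-0.58 to 0.0703) in WT, and STE50 (-0.12 to 0.12), STE11 (-0.15 to 0.23) and KSS1 (-0.40 to 0.10) in 4P. The cause was not tested. The nested block takes the spread between time courses out of the error, so the calls it adds between genotypes leave out that spread. For the alternative settings no share over all genes is given beside the counts of members. The replicate number block takes out the dye orientation; its added calls between genotypes were DIG2 at 15 min, KAR5 at 75 min and GPA1 at 105 min. With an array left out, the dye orientations of its group no longer balance. The promoter search named in the design was not run.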
